A study of Mus musculus with 12 samples.

Results

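The reprogramming factors Oct3/4 (Pou5f1), Sox2, Klf4 and c-Myc (Myc) were read on 12 one-colour arrays, with 1 array for each of 12 mouse iPS cell clones. They were chosen as the non-control probes whose accession belongs to these genes. This gave 4 probes, 1 for each gene, of 55681 probes in all, of which 27235 matched a single gene and covered 20660 genes. The probe of Pou5f1 was A_51_P202340, that of Sox2 A_52_P307739, that of Klf4 A_55_P2122020 and that of Myc A_52_P108346. All 4 were well above background on all 12 arrays, as were 28340 probes in all. None of their spots was saturated or marked as an outlier.

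The study asked whether Aid is needed when mouse embryonic fibroblasts are turned into iPS cells. The labels give 6 clones as Aid+/+, which are 967B2, 967B4 and 967B6 of series 967B together with 979B1, 979B3 and 979B4 of series 979B. They give the other 6 as Aid-/-, and these are 979F1, 979F2 and 979F3 of series 979F together with 981E1, 981E4 and 981E5, called the 981E1 series. A clone grew from a single picked colony, and a series is the 3 clones that share the number and letter of their names. All clones carried the Nanog-GFP reporter, were labelled male and came from a mix of the C57BL6, DBA and 129S4 strains. The fibroblasts had been infected with retroviruses carrying 3 or 4 of the factors, the set of 3 lacking c-Myc, and which set each clone received is not given in the sources used here. The clones were grown first on feeder cells and then on gelatin with LIF and 2 μg/mL puromycin, and were taken at passage 6.

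Pou5f1 is a POU-domain transcription factor and Sox2 an HMG-box factor, and the 2 proteins bind neighbouring DNA motifs as a pair and hold the pluripotent state. Klf4 is a zinc-finger factor that lies downstream of LIF and Stat3 in mouse pluripotent cells. Myc is a basic helix-loop-helix factor that binds DNA with Max and raises genes of growth, ribosome production and the cell cycle. In reprogramming, retroviral copies of these factors start the process, and the endogenous genes hold the state once the vectors have been silenced. The probes' place within the transcripts is not given in the sources used here. On these arrays, signal from the endogenous genes and from remaining vector transcripts therefore cannot be told apart. In these bulk samples, fewer cells of a type and less RNA per cell cannot be told apart either. The paper measured the transgenes by RT-PCR and selected mature clones by their suppression. It reported no significant difference in transgene levels between Aid+/+ and Aid-/- clones, and none in endogenous Pou5f1 by RT-PCR. The sources used here do not list the selected clones.

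The arrays differed little in brightness, with a 75th percentile of the processed signal between 418 and 509 and between 31698 and 33662 probes well above background. Slide 1 held series 967B and slide 2 series 979F, while slide 3 held both series 979B and the 981E1 series. The 9 markers of pluripotent cells were well above background on all 12 arrays, with a summed signal of 807 to 1067 times the 75th percentile in Aid+/+ clones and 745 to 1003 in Aid-/- clones.

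Markers of fibroblasts and feeder cells were lowest in 1 clone, and their sums overlapped between the genotypes. Their summed signal over 9 genes was 1.81 in 967B4, between 6.82 and 17.5 in the other Aid+/+ clones, and between 13.4 and 33.6 in the Aid-/- clones. Of the 9 genes, 8 had a higher mean in Aid-/- clones, 7 of them at an unadjusted p under 0.05, as had 16.1% of all genes, and 0 after adjustment over all probes by limma, and Lum was well above background on none of the arrays. Their part in the values below was not tested.

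The stretches around the RefSeq transcription starts of the factors are shown because Aid was proposed to act in removing DNA methylation, which in mouse cells sits at CG pairs. Each covers 250 bases before to 50 after the start, in the assembly GRCm38.p6, and is written 5′ to 3′ on the gene's strand with CG pairs in capitals. The stretch of Pou5f1 lies at chr17:35505782-35506081 on the plus strand, that of Sox2 at chr3:34649745-34650044 on the plus strand, and that of Klf4 at chr4:55532426-55532725 on the minus strand. Methylation was not measured on these arrays, and the stretches are given as background to the genes, Myc not among them.
Pou5f1: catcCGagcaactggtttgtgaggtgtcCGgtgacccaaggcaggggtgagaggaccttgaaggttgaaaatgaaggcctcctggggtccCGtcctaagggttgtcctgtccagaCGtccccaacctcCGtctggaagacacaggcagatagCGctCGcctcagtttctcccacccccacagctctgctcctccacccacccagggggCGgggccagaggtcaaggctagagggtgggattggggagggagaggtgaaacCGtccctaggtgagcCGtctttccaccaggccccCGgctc
Sox2: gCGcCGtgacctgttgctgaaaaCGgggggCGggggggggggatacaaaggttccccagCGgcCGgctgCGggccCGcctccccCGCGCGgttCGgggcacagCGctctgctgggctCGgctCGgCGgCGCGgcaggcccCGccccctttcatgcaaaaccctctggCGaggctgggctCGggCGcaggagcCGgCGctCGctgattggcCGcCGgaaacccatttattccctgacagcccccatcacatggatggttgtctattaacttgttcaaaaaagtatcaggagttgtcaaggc
Klf4: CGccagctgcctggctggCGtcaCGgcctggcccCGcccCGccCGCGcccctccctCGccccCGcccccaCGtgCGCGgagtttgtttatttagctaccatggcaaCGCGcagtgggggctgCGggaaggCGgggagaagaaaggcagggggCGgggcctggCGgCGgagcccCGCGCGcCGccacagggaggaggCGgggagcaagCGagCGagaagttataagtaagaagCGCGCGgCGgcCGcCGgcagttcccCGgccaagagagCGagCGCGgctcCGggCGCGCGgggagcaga

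The number of CG pairs differed widely between the 3 genes. Pou5f1 had 11 in its stretch, more than 58.6% of 32851 promoters of the same length, and a further Pou5f1 start at chr17:35508557-35508856 had 6. Sox2 had 27, more than 84.5% of promoters. Klf4 had 40, more than 96.1% of promoters. Over all promoters the median was 7. The letters GGGCGG, searched on both strands, were found 1 time in Pou5f1, 2 times in Sox2 and 4 times in Klf4, and in 35.7% of all promoters. The letters CACGTG, an E-box that Myc can bind, were found in the stretch of Klf4 alone among the 3, and in 7.15% of all promoters.

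The levels below are log2 of the processed signal minus the 75th percentile of the array, so 0 is that percentile and a difference of 1 is 2-fold. They compare clones for a gene and not genes with each other.

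The level of Pou5f1 overlapped between the genotypes and varied by less than 2-fold over the clones. In series 967B it was 3.31 in 967B2, 3.00 in 967B4 and 3.61 in 967B6. In series 979B it was 3.37 in 979B1, 3.17 in 979B3 and 3.16 in 979B4. The Aid+/+ clones thus covered a 1.52-fold range, with a median of 3.24. In series 979F it was 3.10 in 979F1, 3.21 in 979F2 and 3.69 in 979F3. In the 981E1 series it was 3.23 in 981E1, 2.92 in 981E4 and 3.15 in 981E5. Clone 979F3 was the highest of the 12 and 981E4 the lowest, and 4 of the 6 Aid-/- clones lay within the range of the Aid+/+ clones. The median of the Aid-/- clones was 3.18, and the whole range over 12 clones was 1.71-fold. The spread between clones was of a common size, since 40.3% of probes well above background on all arrays had a smaller SD.

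Sox2 also varied by less than 2-fold, and its lowest and highest clones came from different genotypes. The Aid+/+ clones had 3.48 in 967B2, 4.27 in 967B4 and 3.60 in 967B6, then 4.03 in 979B1, 4.00 in 979B3 and 3.94 in 979B4. Clone 967B4 was the highest of all, and the 3 clones of 979B followed it. The Aid-/- clones had 3.76 in 979F1, 3.80 in 979F2 and 3.67 in 979F3, then 3.91 in 981E1, 3.72 in 981E4 and 3.43 in 981E5. Clone 981E5 was the lowest of the 12, and the other 5 Aid-/- clones lay within the Aid+/+ range. The 12 clones covered a 1.79-fold range, and 45.6% of probes had a smaller SD.

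Klf4 was even in 2 of the series and spread widely in the other two. Series 967B held both the lowest and the highest clone, with 2.93 in 967B2, 4.79 in 967B4 and 3.08 in 967B6. In series 979B the level was 3.24 in 979B1, 3.36 in 979B3 and 3.27 in 979B4. The other 5 Aid+/+ clones were thus between 2.93 and 3.36. In series 979F the 3 clones were almost equal, with 3.48 in 979F1, 3.47 in 979F2 and 3.49 in 979F3, an SD of 0.011. In the 981E1 series the level was 3.41 in 981E1, 4.02 in 981E4 and 2.93 in 981E5. All 6 Aid-/- clones lay within the range of the Aid+/+ clones, and the 12 clones covered a 3.63-fold range. Of probes well above background on all arrays, 87.9% had a smaller SD.

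Myc was the most variable of the 4 factors between clones. In series 967B it was 1.90 in 967B2, 0.57 in 967B4 and 1.72 in 967B6. In series 979B it was -0.59 in 979B1, 0.65 in 979B3 and 0.81 in 979B4. Clone 979B1 was the lowest of the 12, below the 0.57 of 967B4, the next Aid+/+ clone. In series 979F it was 1.24 in 979F1, 1.67 in 979F2 and 1.50 in 979F3. In the 981E1 series it was 1.90 in 981E1, 1.35 in 981E4 and -0.33 in 981E5. Both genotypes therefore held clones near 1.90 and clones below 0, and the 12 clones covered a 5.60-fold range. The SD exceeded that of 98.0% of probes. Myc was read by 2 spots on each array, which differed by a median of 0.058 and at most 0.164 log2 units, far below the differences between clones.

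**Figure D1:**
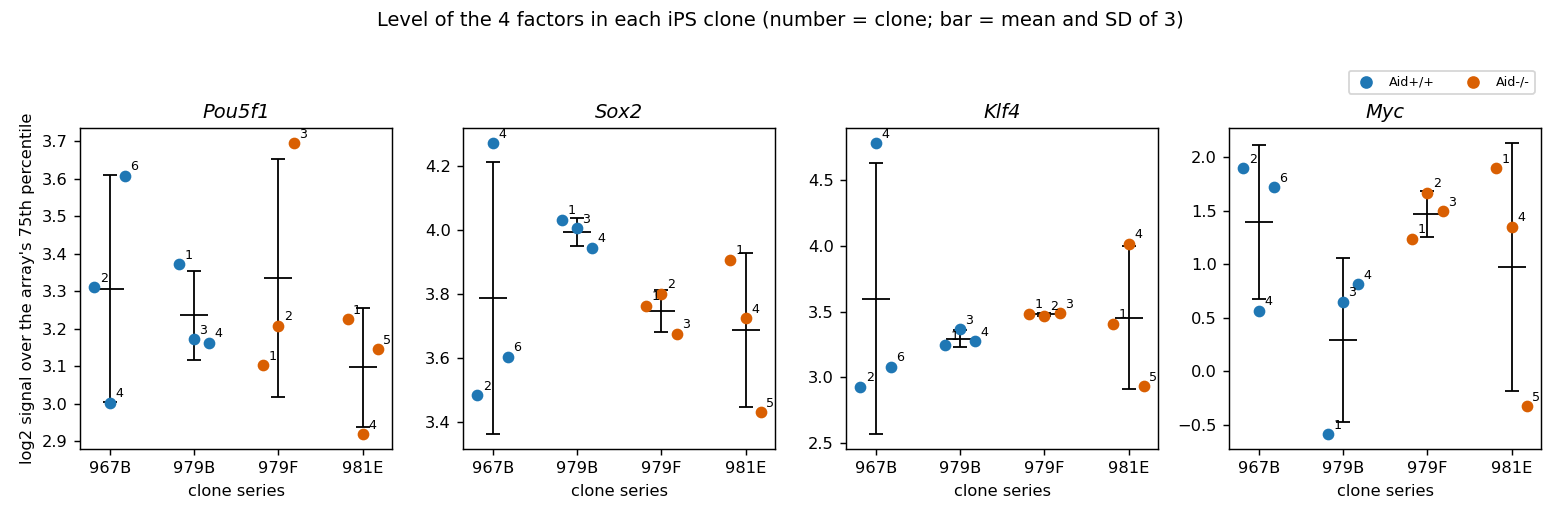
Log2 signal over the 75th percentile of the array (y axis, a separate scale for each gene) for the 12 clones by clone series (x axis), with Aid+/+ in blue and Aid-/- in orange. Points are clones numbered as in their names, and bars are the mean and SD of 3 clones. Klf4 stands at 4.79 in 967B4, and Myc falls to -0.59 in 979B1 and -0.33 in 981E5.

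By the rule for a clone that stands apart among 6, in which the gap to the nearest other clone exceeds Dixon's 95% critical share of the whole range, 2 of the 8 groups had such a clone. Klf4 in 967B4 had a gap of 0.764 of the range of the Aid+/+ clones. Myc in 981E5 had a gap of 0.704 of the range of the Aid-/- clones. Pou5f1 in 979F3 had a gap of 0.604 and did not reach the limit. Of probes well above background on all arrays, 7.52% had such a clone among the Aid+/+ clones and 9.72% among the Aid-/- clones. The medians of the chromosomes that carry these genes moved the same way, by far smaller amounts. For 900 genes of chromosome 4, which carries Klf4, the median difference from the clones' median was 0.069 in 967B4, the highest of the 12 clones, and at most 0.039 in the others. For 546 genes of chromosome 15, which carries Myc, it was -0.092 in 981E5, the lowest of the 12, and at least -0.041 in the others. These shifts were not particular to the chromosome of the gene. Clone 967B4 was also the highest on chromosomes 15 (0.109) and 17 (0.075), though its Myc lay at -0.73 from the median of the clones. Clone 981E5 was also the lowest on chromosomes 4 (-0.064) and 17 (-0.093). The part of these shifts in the values of Klf4 and Myc was not tested.

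Comparison of the genotypes gave no call for any of the 4 factors. By limma over all probes, 0 of the 4 passed an adjusted p under 0.05, and 0 had an unadjusted p under 0.05, where 0.0611% of all probes passed the adjusted p. For each factor the clones of the 2 genotypes overlapped, while 2.17% of all probes had genotypes that did not overlap.

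The size of the difference that these clones allow was narrower for Pou5f1 and Sox2 than for Klf4 and Myc. Pou5f1 was at 3.27 ± 0.21 (SD, n = 6) in Aid+/+ and 3.22 ± 0.26 (SD, n = 6) in Aid-/- clones, a log2 difference of -0.06 with a 95% interval of -0.36 to 0.25. This interval runs from 0.781 to 1.18 times the Aid+/+ level (exact two-sided permutation p = 0.675, limma adjusted p = 0.944). Sox2 was at 3.89 ± 0.29 and 3.72 ± 0.16 (SD, n = 6 each), a log2 difference of -0.17 with an interval of -0.48 to 0.13, or 0.719 to 1.09 times (exact permutation p = 0.236, limma adjusted p = 0.653). A loss or gain of either factor by a factor of 2 lay outside these intervals, which treat the clones of a series as independent. Klf4 was at 3.45 ± 0.67 and 3.47 ± 0.34 (SD, n = 6 each), a log2 difference of 0.02 with an interval of -0.61 to 0.65 (exact permutation p = 0.952, limma adjusted p = 1). Myc was at 0.84 ± 0.90 and 1.22 ± 0.79 (SD, n = 6 each), a log2 difference of 0.38 with an interval of -0.60 to 1.36, or 0.659 to 2.56 times (exact permutation p = 0.452, limma adjusted p = 0.781). For Myc, a rise of 2-fold in the clones labelled Aid-/- lay inside the interval.

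Genotype took up less of the variance between clones than in the median probe for Pou5f1, Klf4 and Myc, and slightly more for Sox2. It accounted for 1.64% of the variance of Pou5f1, 13.9% of that of Sox2, 0.046% of that of Klf4 and 5.63% of that of Myc, where the median over probes well above background on all arrays was 12.2%. The clone series accounted for 18.1% in Pou5f1, 24.7% in Sox2, 4.89% in Klf4 and 34.4% in Myc, where that median was 49.9%. In the test of the 4 series means, which allows any series to differ, 0 of the 4 factors passed an adjusted p under 0.05, and 4.16% of all probes did. The adjusted p was 0.829 for Pou5f1, 0.723 for Sox2, 0.995 for Klf4 and 0.501 for Myc (limma F test). For all 4 factors most of the spread thus lay between clones of the same series.

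By the clone names, 979B and 979F were the only series on these arrays that shared an experiment and differed in genotype, and there 3 of the 4 factors separated them. Myc was higher in all 3 clones of 979F than in all 3 of 979B, with means of 1.47 and 0.29 and a difference of 1.18 (SE 0.58, limma adjusted p = 0.389). Sox2 was lower in all 3 clones of 979F, with means of 3.75 and 3.99, a difference of -0.25 (SE 0.20, limma adjusted p = 0.606). Klf4 was at 3.48 in 979F and 3.29 in 979B, and its 3 clones of 979F also lay above the 3 of 979B, a difference of 0.19 (SE 0.43, limma adjusted p = 0.948). None of these passed the adjusted p, which 0.614% of all probes passed, and the exact permutation p was 0.1 for each, the smallest that 3 against 3 clones allow. Series that do not overlap were common here, at 29.3% of all probes. In a fit of these 6 clones alone, the unadjusted p was 0.026 for Myc and 0.033 for Sox2 and the adjusted p from limma 0.169 and 0.191. The 2 series lay on different slides, so that genotype, slide and series cannot be told apart in this experiment.

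On slide 3, which also held both genotypes, the 981E1 series was compared with the same 979B clones. Sox2 was lower in all 3 clones of the 981E1 series than in those of 979B, by 0.31 (SE 0.20, limma adjusted p = 0.494). Myc differed by 0.68 (SE 0.58) and Klf4 by 0.16 (SE 0.43), and for both the series overlapped. Here 23.6% of all probes had series that did not overlap, and 4.13% passed the adjusted p. Both comparisons rest on the 979B clones, which were high in Sox2 and low in Myc, so they are not independent of each other.

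Against the other Aid+/+ series the picture was different. Between the 981E1 series and 967B, all 4 factors overlapped, where 14.8% of probes did not and 0.196% passed the adjusted p. Myc was lower in the 981E1 series by a difference of -0.42 (SE 0.58), opposite in sign to that between 979F and 979B. This sign was set by 981E5, without which the difference was 0.23. The difference between these 2 differences was 1.60 for Myc (SE 0.82, unadjusted p = 0.081, limma adjusted p = 0.568), and 0.95 without 981E5. It was 0.31 (SE 0.28) for Pou5f1, -0.15 (SE 0.28) for Sox2 and 0.33 (SE 0.62) for Klf4. None of these interactions passed the adjusted p, which 0.106% of all probes passed. Between the 2 Aid+/+ series, Myc differed by -1.10 in 979B minus 967B (SE 0.58, limma adjusted p = 0.590), where 0.711% of probes passed, beside the 1.18 of 979F minus 979B. Without 979B1, the lowest clone, these differences were -0.66 and 0.74.

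**Figure D2:**
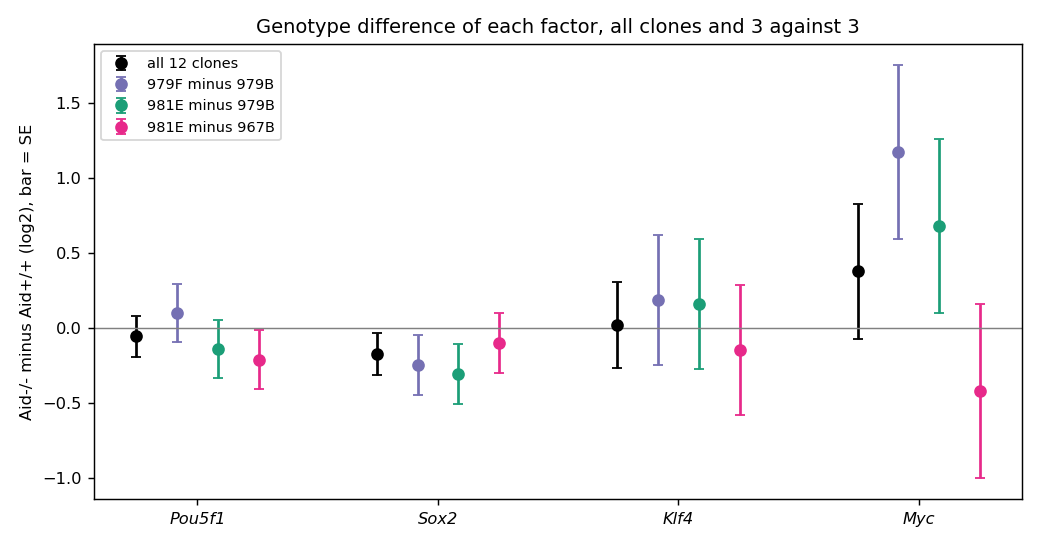
Log2 difference of Aid-/- minus Aid+/+ clones (y axis) for the 4 factors (x axis) over all 12 clones and in 3 comparisons of 3 against 3 clones, with the SE of the limma fit as bars. Myc lies at 1.18 in 979F minus 979B and at -0.42 in the 981E1 series minus 967B, and Sox2 is below 0 in each. The comparisons share the clones of 979B and of the 981E1 series.

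The factors were next compared with each other over the 12 clones. Sox2 and Klf4 had a Pearson r of 0.67 (permutation p = 0.0156 and 0.0937 adjusted over 6 pairs, n = 12) and a Spearman rank correlation of 0.42 (permutation p = 0.177, adjusted p = 0.316). Without 967B4 and 981E5, the farthest from the median of Sox2, r was 0.19 and the relation no longer held, while without 967B4 and 981E4, the farthest from the median of Klf4, r was 0.63. As deviations from the series means, r was 0.88, and the 3 clones of 967B carried most of that range. The other 5 pairs had r between -0.49 and 0.21, with adjusted p of 0.335 or above. Pou5f1 and Klf4 had r = -0.49 (permutation p = 0.112, adjusted p = 0.335, n = 12), and the Spearman rank correlation was -0.43. For this pair r was -0.71 without 979F3 and 967B6, and -0.02 without 967B4 and 981E4. Sox2 and Myc had r = -0.27 (permutation p = 0.384, adjusted p = 0.577, n = 12), and -0.72 without 967B4 and 981E5. As deviations from the series means, r of Sox2 and Myc was -0.07.

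**Figure D3:**
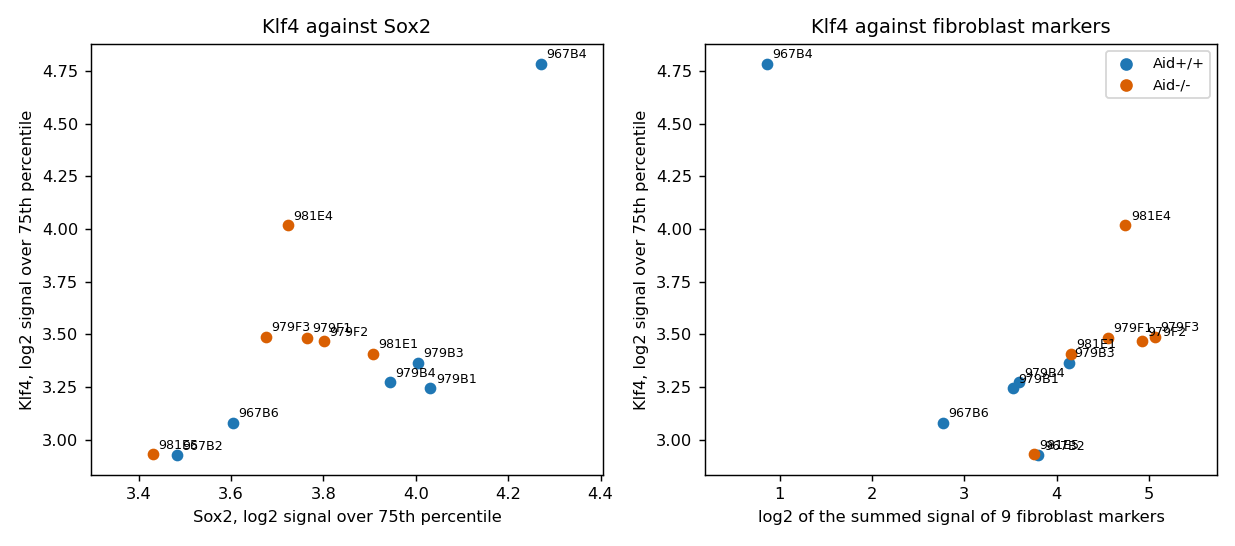
Klf4 (y axis, log2 signal over the 75th percentile) in the 12 clones against Sox2 on the same scale (left) and against log2 of the summed signal of 9 fibroblast and feeder markers (right), with Aid+/+ in blue and Aid-/- in orange. Clone 967B4 is alone at high Klf4, with the highest Sox2 and a marker sum of 1.81, where the other clones have sums of 6.82 to 33.6.

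Of the 13513 genes whose probe was well above background on all 12 arrays, those most like each factor over the clones were ranked by Pearson r. For Pou5f1 the first was the pseudogene Pou5f1-rs4, with r = 0.962, whose transcript is close in sequence to that of Pou5f1, so that the 2 probes may read shared molecules. Glyr1 followed with 0.945 and Tatdn2 with 0.938, and all 3 were highest in 979F3, as Pou5f1 was. Tatdn1 with -0.793 and Lpcat3 with -0.780 ran most opposite. For Sox2 the first were the aminopeptidase gene Lap3 (r = 0.965), 6030458C11Rik (0.928) and the phosphatase gene Dusp1 (0.928), each highest in 967B4. The most opposed were Flt3l (-0.905) and Epc1 (-0.903).

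For Klf4 the first were Inhbb, a subunit of activins and inhibins (r = 0.931), the creatine transporter gene Slc6a8 (0.930) and Fam102a (0.913). All 3 were highest in 967B4, and without the 2 clones farthest from the median of Klf4 their r was 0.772, 0.690 and 0.860. Dmkn (-0.939) and Hmgxb4 (-0.921) were lowest in that clone. For Myc the first were the zinc-finger gene Zfp607a (r = 0.970) and the small GTPase gene Rhof (0.953). The most opposed were Jsrp1 (-0.973) and the histone gene H2bu2 (-0.964). These r were chosen as the extremes of many genes and are given as a description of 12 clones.

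Close relatives of the factors showed the clearest differences between series. Of 9 relatives with a POU, Sox, Klf or Myc domain, 0 passed the genotype test and 2 passed the test of series means, or 22.2%, where 4.28% of all genes did. Klf2, which shares functions with Klf4 in mouse pluripotent cells, was at 5.92 in 981E1, 5.75 in 981E4 and 6.23 in 981E5. In the other 9 clones it was between 4.81 and 5.29, so that all 3 clones of the 981E1 series lay above all others (limma F adjusted p = 0.010). Klf2 lies on chromosome 8, where the median of 723 genes was raised by 0.34 in 981E5 and was between -0.048 and 0.037 in the other 11 clones. The part of this in the value of 981E5 was not tested, and 981E1 and 981E4 had high Klf2 without it.

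Mycl, a member of the Myc family, had the opposite order. It was at -1.78 in 981E1, -2.10 in 981E4 and -2.49 in 981E5, and between -1.27 and -0.72 in the other 9 clones (limma F adjusted p = 0.016). The difference between genotypes was 0.46 (SE 0.24, limma adjusted p = 0.421) for Klf2 and -0.64 (SE 0.22, limma adjusted p = 0.235) for Mycl. Mycn, the third member, differed by 0.02 (SE 0.15).

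The partners of Myc gave no call. Of 8 genes of its dimerisation network, 0 passed either test, and Mxi1 was well above background on none of the arrays. The repressors Mxd1 and Mxd4, which compete with Myc for Max, had the largest genotype differences of the list, of 0.33 (SE 0.22, limma adjusted p = 0.568) and 0.32 (SE 0.13, limma adjusted p = 0.316). Mnt, a further partner of Max, was between 3.43 in 967B4 and 4.39 in 967B6.

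Of 15 target genes of Myc, 13 had a lower mean and 2 a higher mean in Aid-/- clones, with a median difference of -0.16 against -0.03 over all genes, of which 57.6% had a lower mean. None passed the genotype test over all probes, and 4 of 15, or 26.7%, had an unadjusted p under 0.05 by limma, against 16.1% of all genes. Their median r with Myc over the clones was 0.43, and 11 of 15 had a positive r. Over all 13513 genes ranked the median was 0.02, and 6948 had a positive r. Lists that are not of Myc targets had like medians with Myc, 0.42 for genes acting on factor levels and 0.39 for genes silencing vectors. Odc1, Ncl, Nme1, Cad, Fbl, Nop56, Srm and Ddx18 had their lowest level in 981E5, the clone that stood apart in Myc. The part of this clone in these r was not tested. Tfrc, the transferrin receptor, was the member that passed the test of series means (limma F adjusted p = 0.044), or 6.67% of the list where 4.28% of all genes passed. It was at 3.84, 3.66 and 3.72 in 979B1, 979B3 and 979B4, above the other 9 clones, and between 2.97 and 3.39 in the Aid-/- clones. Ldha, a glycolytic enzyme, had a difference of -0.32 (SE 0.09, limma adjusted p = 0.142). The cyclin Ccnd2 was 1 of the 2 with a higher mean, with a difference of 1.08 (SE 0.41, limma adjusted p = 0.277). It was at 2.22, 2.23 and 2.18 in the 3 clones of 979F and between -0.79 and 1.63 in the others. It is also expressed in fibroblasts, whose marker sum was likewise lowest in 967B4, and the part of such cells in it was not tested.

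**Figure D4:**
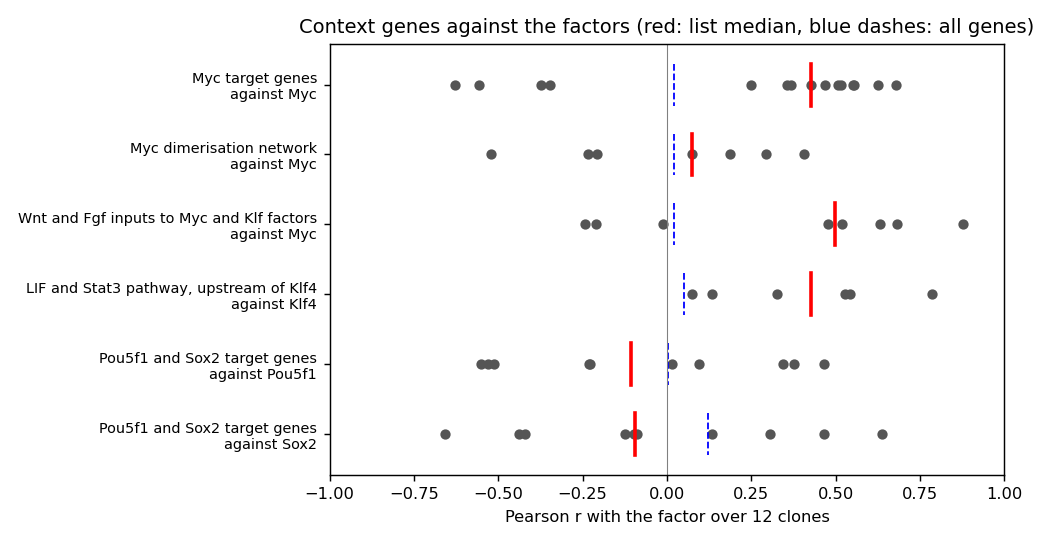
Pearson r over 12 clones (x axis) between a factor and each gene of a list that was well above background on all arrays (grey points), with the median of the list in red and the median of all 13513 genes in dashed blue. The medians with Myc are 0.43 for its targets and 0.50 for the Wnt and Fgf genes. The targets of Pou5f1 and Sox2 have medians of -0.11 and -0.09 with these factors.

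Target genes of Pou5f1 and Sox2 gave no call. Of 10 such genes, 0 passed either test, 5 had a higher and 5 a lower mean in Aid-/- clones, and the median difference was -0.01. Tdgf1, a co-receptor of Nodal, had the largest difference, of -0.52 (SE 0.13, unadjusted p = 0.00231 and adjusted p = 0.135 from limma). It was between 5.39 and 5.82 in Aid-/- clones and between 5.78 and 6.52 in Aid+/+ clones. Lefty1, an inhibitor of Nodal, differed by -0.32 (SE 0.26), and was at 3.94 in 967B4 and 5.61 in 967B2. Spp1, a secreted phosphoprotein, had its highest level of 5.16 in 981E4.

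The 7 genes listed for the LIF and Stat3 pathway gave 0 calls in either test. The LIF receptor Lifr differed by 0.14 (SE 0.12) and the kinase Jak1 by 0.17 (SE 0.11). The receptor subunit Il6st was highest in the 981E1 series, at 1.92, 1.61 and 1.64. Stat3 itself was lowest in 981E5, at 2.66, and between 3.02 and 3.29 in the other clones. Of the 6 genes with a level on all arrays, all had a positive r with Klf4, as had 7460 of all 13513 genes ranked. Their median was 0.43 against 0.05 over all genes, and the markers of pluripotent cells also had 0.43. The r ran from 0.08 for Pim1 and 0.13 for Il6st to 0.79 for Tfcp2l1. Tfcp2l1 was highest in 967B4 (4.00), the clone that stood apart in Klf4.

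Among 9 genes of Wnt and Fgf signalling, 0 passed the genotype test and 1, the immediate early gene Egr1, passed the test of series means (limma F adjusted p = 0.030), or 11.1% of the list against 4.28% of all genes. Egr1 was at 0.36, 0.28 and 0.10 in the 3 clones of 979F, below the other 9 clones, and at 3.74 in 967B4, the highest. Ctnnb1, the Wnt effector β-catenin, differed by -0.30 (SE 0.08, limma adjusted p = 0.156), and Spry4, an inhibitor of Fgf signalling, by 0.31 (SE 0.37).

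Of 6 genes that act on the level of the factors, most by degradation or repression, 0 passed either test. Wwp2, a ubiquitin ligase of Pou5f1, differed by 0.20 (SE 0.12) and was lowest in 967B4, at 3.99 against 4.37 to 4.76 in the other clones. Lin28a, an RNA-binding protein of pluripotent cells, differed by -0.21 (SE 0.25), with its low values of 4.26 in 967B4, 4.09 in 981E4 and 3.99 in 981E5. The ligase Trim32 was between 2.40 and 2.90. The histone methyltransferase Ehmt2 was at 5.44, 5.41 and 5.38 in the 3 clones of the 981E1 series and between 5.64 and 5.91 in the other clones (limma F adjusted p = 0.057).

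Genes that silence retroviral vectors in pluripotent cells bear on the vector copies of the factors. Of 5 such genes, 0 passed either test. The histone methyltransferase Setdb1 differed by -0.14 (SE 0.11), with 1.83, 1.73 and 1.65 in the 981E1 series and 1.92 to 2.18 elsewhere. Yy1, a zinc-finger factor, differed by 0.11 (SE 0.09), and Ybx1, which binds nucleic acids, by -0.10 (SE 0.11).

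Clone 967B4, which stood apart in Klf4, also did so in some of the marker genes. It had the highest Tcl1 (4.73), the highest Eomes (1.25) and the lowest Col1a1 (-3.57), Col1a2 (-3.79) and Dcn (-4.00). The markers of pluripotent cells were not uniformly high in it. Nanog, Dppa5a, Tdgf1 and Esrrb were highest there, and Zfp42 (6.35), Utf1 and Dppa3 were at neither end. Fbxo15 was the lowest of all clones there, at 4.54 against 5.61 to 5.95 in the other Aid+/+ clones. In the other 11 clones the collagen genes Col1a1 and Col1a2 were between -0.40 and 2.01 and between 0.75 and 3.84. Clone 981E5, low in Myc, stood apart by the same rule in none of the other named genes examined, and had the highest Zfp42 (7.06), the lowest Fgf5 (-2.27) and the highest Gata6 (-2.16). The rule was not applied to the other genes of the lists, and 981E5 was also at an end of some of these. It was the lowest in Pou3f1 (1.26, median of all clones 3.75), in Sox3 (-1.70, median 0.88) and in several Myc targets. It was the highest in Fgf4 (7.04, median 6.29). Otx2 was between 3.68 and 5.08 over the clones. The 10 markers of early differentiated cells gave 0 calls in either test, with summed signals of 16.9 to 37.5 in Aid+/+ and 14.5 to 32.4 in Aid-/- clones. Whether these marker levels have a part in the factor values was not tested.

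**Figure D5:**
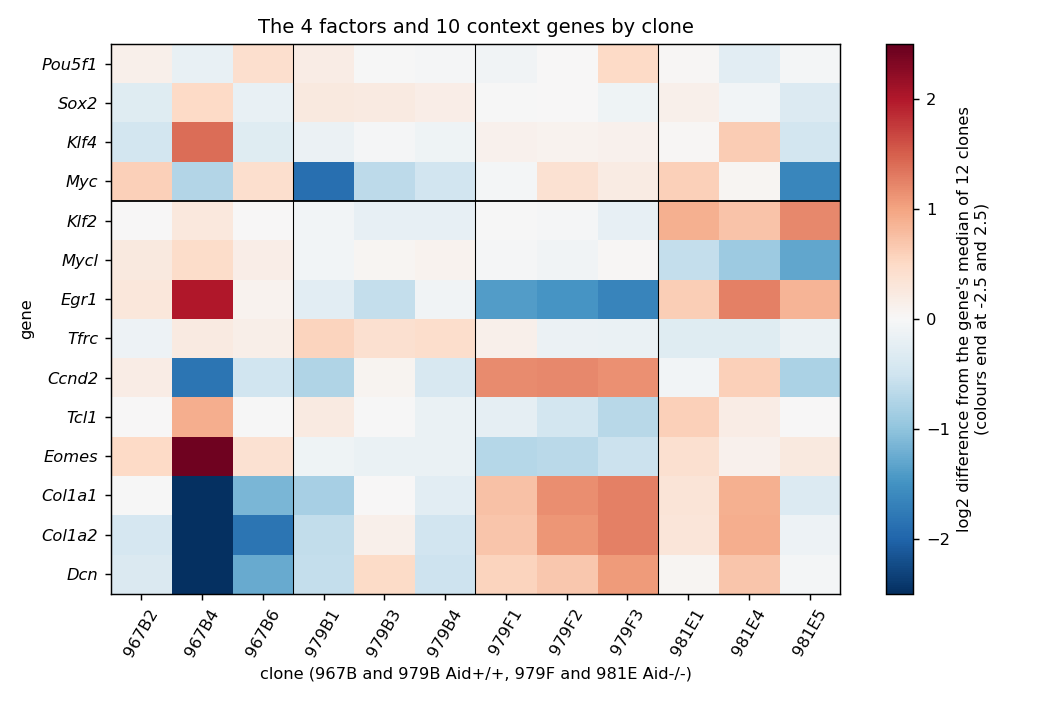
Log2 difference from the gene's own median over 12 clones (colour) for the 4 factors (above the line) and 10 context genes (y axis) in each clone (x axis), with vertical lines between the series. High Klf4 in 967B4 stands in the same column as high Egr1 and Eomes and low collagen genes, and high Klf2 and low Mycl fill the 3 columns of the 981E1 series.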

How the data were processed

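Total RNA of 12 iPS cell clones was labelled with Cy3 and read on 1-colour arrays, 1 per clone. The authors read the spots with Feature Extraction 10.7.3.1 per the file headers, and the processed intensity they deposited is background-corrected but not normalized between arrays. The authors also deposited log2 values made with a 75% shift in GeneSpring GX 11, which served as an alternative. Control and outlier spots were dropped, log2 was taken, repeat spots of a probe were replaced by their mean, and each array was shifted so that its 75th percentile was 0.

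Genes were named through the accessions of the files and a RefSeq table of GRCm38.p6, which matched 27235 of 28685 probes with a RefSeq accession. The array design uses another build, so no array coordinates were taken. A gene with several probes was represented by that with the highest mean signal.

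Genotypes, series means and their contrasts were tested for all 55681 probes with limma 3.58.1 (R 4.3.3, lmFit and eBayes, no covariate), with Benjamini-Hochberg adjustment. Single genes were also tested by exact permutation over 924 splits, and pairs of factors by 100000 permutations (Python 3.11.15, scipy 1.17.1). Tested on simulated data of 55580 probes, the genotype fit recovered 181 of 200 changed probes with 12 false calls, and the interaction recovered 85 with 8 false. The simulated clones were drawn independently with the spread within series, and apart from the added changes their series did not differ. These counts therefore do not describe the fits where series differ, as they do on these arrays. A planned background correction on the mean spot signal was not possible, as the files used here hold the median, so normexp with an offset of 50 was run on the median intensity. This and the comparison of the 981E1 series with 967B alone were chosen after seeing the data.

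Of each list, the genes named are those that passed an adjusted p under 0.05 in either test, the 2 with the largest genotype difference and the 2 with the lowest series p among those well above background on all arrays. The members and lists were chosen with earlier results of these data known. Each clone is 1 sample, and p-values measure the spread between clones. The clones of a genotype came in series of 3, and the main genotype fit, its intervals and the permutations treat them as independent. With series as a random block, the SE of the genotype difference was 0.152 against 0.138 for Pou5f1 and 0.153 against 0.139 for Sox2. The number of arrays limits the precision. The level of the gene targeted in the Aid-/- clones and 1 gene ranked by its likeness to Myc are not reported here.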

Additional observations from a re-analysis of the deposited data

Results flagged for a closer look

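Among the 4 factors and the named genes of the lists, 76 groups of 6 clones were examined for a clone whose gap to the nearest other exceeded Dixon's 95% critical share of the range, and 10 had one, where chance gives about 1 in 20 groups, or 3.8. Such a clone was also found for 7.52% of probes well above background on all arrays in Aid+/+ and 9.72% in Aid-/- clones, and the named genes were partly chosen for large differences. Klf4 in 967B4 was at 4.79, and the other Aid+/+ clones were between 2.93 and 3.36. Myc in 981E5 was at -0.33, and the other Aid-/- clones were between 1.24 and 1.90. Of the 10 groups, 7 were set by 967B4. Besides Klf4, this clone was highest among the Aid+/+ clones in Egr1 (3.74, others up to 2.02), Tcl1 (4.73, others 3.65 to 4.04) and Eomes (1.25, others -1.35 to -0.69). It was lowest in Col1a1 (-3.57, others -0.40 to 0.76), Col1a2 (-3.79, others 0.75 to 2.71) and Dcn (-4.00, others -0.90 to 0.85). The remaining groups were Tfrc in 979F1 (3.39, other Aid-/- clones 2.97 to 3.12) and Gata6 in 979B3 (-2.87, other Aid+/+ clones -4.10 to -3.80). The cause of these differences was not tested.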

How the results depend on the processing

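Over the 26 alternatives of the genotype test, the adjusted p of each factor from limma, or from the methods' t-test, remained over 0.05, with a lowest value of 0.664 for Pou5f1, 0.191 for Sox2, 0.287 for Klf4 and 0.169 for Myc. The direction was lower in Aid-/- clones for Sox2 under all of them. Pou5f1 changed sign to 0.000384 with the percentile over detected probes, 0.0147 with quantile normalization and 0.0992 in 979F against 979B alone. In the 981E1 series against 967B alone Klf4 was -0.144 and Myc -0.42. Leaving out each clone in turn gave -0.151 to 0.0118 for Pou5f1, -0.0892 to 0.289 for Klf4 and 0.0921 to 0.688 for Myc, with Klf4 at its highest without 967B4. The share of tested probes called for genotype, 0.0611%, was 0.907% with normexp, 0.192% with quantile normalization, 0.278% and 1.69% with probes detected on at least 1 or on all 12 arrays, 0.518% with trend and robust estimation, 0.647% with the methods' t-test, 4.13% and 0.0269% with slide as a fixed or random block, 0.0126% with series as a random block, 0.508% in 979F against 979B, 1.47% on slide 3 and 0.00898% in the 981E1 series against 967B alone. It was 0.0108% to 0.120% on leaving out a clone. The series test called 4.16% of probes, and 7.18% with normexp, 8.28% and 16.2% with probes detected on at least 1 or on all arrays, 6.29% with trend and robust estimation, and 1.39% to 8.64% on leaving out a clone. The interaction called 0.106%, and 0.180% with normexp, 0.196% with quantile normalization, 0.171% and 0.363% with probes detected on at least 1 or on all arrays, and 0.0251% to 0.305% on leaving out a clone. Fewer probes are tested where a detection filter is set. With slide as a fixed block, only slide 3, which held both genotypes, bears on the genotype. That fit is therefore the contrast of the 981E1 series with 979B, with the same 4.13%. The cause of the other shifts was not tested. On leaving out a clone, the interaction of Myc was between 0.946 without 981E5 and 2.06 without 981E1, that of Pou5f1 between 0.129 and 0.461, that of Klf4 between -0.264 and 0.666 and that of Sox2 between -0.391 and 0.00341, with no call.

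The r of Sox2 and Klf4 was 0.379 to 0.757 on leaving out a clone. The highest was without 981E4, the only setting with an adjusted p under 0.05 (permutation, 0.0173), and the lowest without 967B4. The r of Klf4 and Myc was -0.215 to 0.241. Pou5f1 in 979F3 stood apart in Aid-/- clones with the percentile over detected probes (0.643) and with quantile normalization (0.643), and no other single clone changed. Scaling moved the median genotype difference of all probes by less than 0.1. The planned mean over several probes of a gene could not be run, since each factor has 1 probe. No paired analysis was possible because replicate numbers only name the clones and clone numbers count colonies.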

Other observations

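Chosen after its values were seen, Socs3, a feedback inhibitor of LIF signalling, was well above background on 11 of 12 arrays and its value in 979F1 was -6.89, where its median over the clones was 4.36.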
